A study of Mus musculus with 39 samples.

Results

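The genes described here are 32 transcripts of hypoxia and glycolysis, a list of targets of the hypoxia-inducible factor (HIF) and of enzymes and transporters of glucose use, chosen by gene symbol. Of the 32, 30 had a row in the gene count table of 39676 genes, and Mxi1 and Pgam1 were not analysed here. They were read in 39 tumours grown subcutaneously in BALB/c mice from AB1-HA, a murine mesothelioma line that carries the influenza haemagglutinin as a model antigen. PBS was given to 10 mice, tretinoin to 9, immune checkpoint therapy (ICT, antibodies that block CTLA-4 and PD-L1) to 10 and both to 10. Tretinoin, all-trans retinoic acid, was dosed at 5 mg/kg a day for 5 days from day 4 per the labels (a legend of the study counts fewer doses), and its vehicle was PBS with DMSO. Each antibody was given at 100 µg from day 7, and the tumour was resected on day 9. In the Tretinoin+ICT group the tumour on the other flank was left in place, and the mice were labelled responders (n = 6) or non-responders (n = 4) by its fate. All groups shared the strain and the implanted line. Age and sex were not in the labels.

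Cells sense oxygen through the prolyl hydroxylases Egln1 and Egln3, which mark HIF alpha subunits for destruction by the Vhl complex when oxygen is present. When oxygen is low, or when the subunit is made faster than it is removed, HIF pairs with Arnt and binds short DNA elements near genes for glucose uptake, glycolysis, pH control, vessel growth and collagen modification. Glycolysis carries glucose through hexokinase and phosphofructokinase to pyruvate, and lactate dehydrogenase and the lactate exporter Slc16a3 dispose of the product. Tumour cells use this route heavily, and so do activated macrophages and neutrophils.

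The HIF element has the core ACGTG or GCGTG, read as CACGT or CACGC on the other strand. In the 250 bases before a start site, 25 of the 27 members with a promoter in RefSeq (GRCm38.p6) held at least 1 such core at the start site with most of them, or 92.6%, and Gpi1 and Tpi1 held none. Of all 27025 genes with a promoter in that collection, counted the same way, 41.5% held at least 1 core and 18.7% at least 2, against 16 members with at least 2. The members also held more CpG dinucleotides there, with a median of 19 against 6 over all genes, and these cores contain CpG. The CACGTG palindrome, which counts once on each strand, was present in 3 members. Cores that overlap were counted separately. A match is a description of the letters and not a bound site. Ndrg1, Slc2a3 and Plod2 are named only. The 6 stretches printed here were chosen because they belong to members with a log2 change over 1 after both agents (Ankrd37, Slc16a3, Bnip3, Hk2 and Vegfa, 5 of 11 such members) and, for contrast, to an enzyme of high level and small change (Ldha). They run from 5′ to 3′ towards the start site, bases inside annotated exons are left out, and capitals mark the cores.
Ankrd37 (chr8:45999868-46000100, minus strand): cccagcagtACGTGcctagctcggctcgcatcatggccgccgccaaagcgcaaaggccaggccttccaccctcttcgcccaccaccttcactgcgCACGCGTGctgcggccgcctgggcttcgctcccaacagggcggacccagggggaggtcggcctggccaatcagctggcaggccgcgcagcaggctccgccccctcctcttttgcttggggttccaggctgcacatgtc
Slc16a3 (chr11:120948817-120949052, plus strand): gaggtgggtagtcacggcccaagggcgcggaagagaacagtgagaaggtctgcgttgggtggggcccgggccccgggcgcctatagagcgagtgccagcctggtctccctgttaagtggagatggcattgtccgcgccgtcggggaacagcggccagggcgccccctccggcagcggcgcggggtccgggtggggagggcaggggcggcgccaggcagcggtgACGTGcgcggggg
Bnip3 (chr7:138909520-138909756, minus strand): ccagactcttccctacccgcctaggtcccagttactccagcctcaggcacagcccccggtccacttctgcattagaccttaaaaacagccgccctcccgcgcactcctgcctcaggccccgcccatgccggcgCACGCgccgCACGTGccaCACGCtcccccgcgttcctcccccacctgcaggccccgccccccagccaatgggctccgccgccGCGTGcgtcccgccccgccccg
Hk2 (chr6:82774455-82774704, minus strand): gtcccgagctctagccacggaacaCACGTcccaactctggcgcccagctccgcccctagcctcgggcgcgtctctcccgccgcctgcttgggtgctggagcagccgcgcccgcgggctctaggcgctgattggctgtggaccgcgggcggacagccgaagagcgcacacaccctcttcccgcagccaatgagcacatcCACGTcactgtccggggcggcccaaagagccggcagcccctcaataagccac
Vegfa (chr17:46032378-46032627, minus strand): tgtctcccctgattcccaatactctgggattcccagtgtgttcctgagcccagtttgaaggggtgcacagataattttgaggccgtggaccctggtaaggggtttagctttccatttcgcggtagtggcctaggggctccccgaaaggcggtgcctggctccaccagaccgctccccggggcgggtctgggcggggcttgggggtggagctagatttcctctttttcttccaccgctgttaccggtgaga
Ldha (chr7:46845554-46845803, plus strand): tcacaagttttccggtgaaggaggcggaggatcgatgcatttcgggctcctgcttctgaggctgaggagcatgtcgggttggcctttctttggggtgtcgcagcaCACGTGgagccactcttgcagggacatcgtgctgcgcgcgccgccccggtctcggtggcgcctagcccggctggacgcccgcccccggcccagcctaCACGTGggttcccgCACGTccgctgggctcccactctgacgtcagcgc
In the stretches printed, Bnip3 and Ldha each held 5 matches, Ankrd37 held 3 and Hk2 2, and Slc16a3 held 1 close to its start. Vegfa held none at this start site, although its log2 change was over 1. A second start site listed for it held 2, and only these place Vegfa among the 25 members. That window (chr17:46025164-46025413) lies inside the annotated gene, as do the printed stretches of Ankrd37, Slc16a3 and Ldha. Bases inside exons were left out of the printed stretches but were searched for the count of 25 of 27.

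Levels are given as CPM, the count of a gene relative to all counts of its tumour, after TMM scaling over all 39 tumours, and differences as log2 fold changes ± standard error (SE) from edgeR's quasi-likelihood test. A gene was said to have changed at a Benjamini-Hochberg adjusted p below 0.05 over all genes tested, and the fold minimum is a log2 change of at least 1. Each p-value sets the difference between groups against the spread between tumours within them. In whole tumours fewer cells of a type and less RNA per cell cannot be told apart. Total counts per tumour ran from 14033046 to 37951183 (median 18548168), and the least counted member, Ankrd37, had between 16 and 354 reads in a tumour. Tumours of a group carry numbers of 2 name series, and each series holds 1 treatment only, so series and treatment cannot be told apart. Of the genes listed as mesothelial and mesothelioma markers, Vim was abundant (2685 to 4565 CPM) and Wt1 lay between 0.255 and 0.993 CPM in PBS tumours. Upk3b had a median of 0 CPM in each group, and Msln, Krt8 and Krt18 were not analysed here. The levels of Pdpn and Krt19, also listed, are not given.

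Per kilobase of exon, PBS tumours held most RNA of 5 of the enzymes that act after phosphofructokinase. The median level was 267 CPM per kb for the aldolase Aldoa, 262 for triosephosphate isomerase Tpi1, 255 for pyruvate kinase Pkm, 228 for phosphoglycerate kinase Pgk1 and 220 for lactate dehydrogenase Ldha. The PBS ranges of these 5 overlap in part, so their order is not firm. Gapdh (67.8) and Gpi1 (63) followed, then collagen prolyl hydroxylase P4ha1 (35.6) and Egln1 (30.2). Lengths are those of all annotated exons (4133 bases for Gapdh), so the place of a gene in this order depends on the annotation. The lowest were Ankrd37 (1.33), the glucose transporter Slc2a3 (1.35), the second aldolase Aldoc (1.71) and carbonic anhydrase Car9 (2.18). Reads of some members can be shared with copies elsewhere: 51.7% of the 100-base windows of Pgk1 transcripts, 24.6% of those of Bnip3 and 20.9% of those of Gapdh also occur in transcripts of other genes, and how reads with several alignments were counted is not given in the sources used here.

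**Figure D1:**
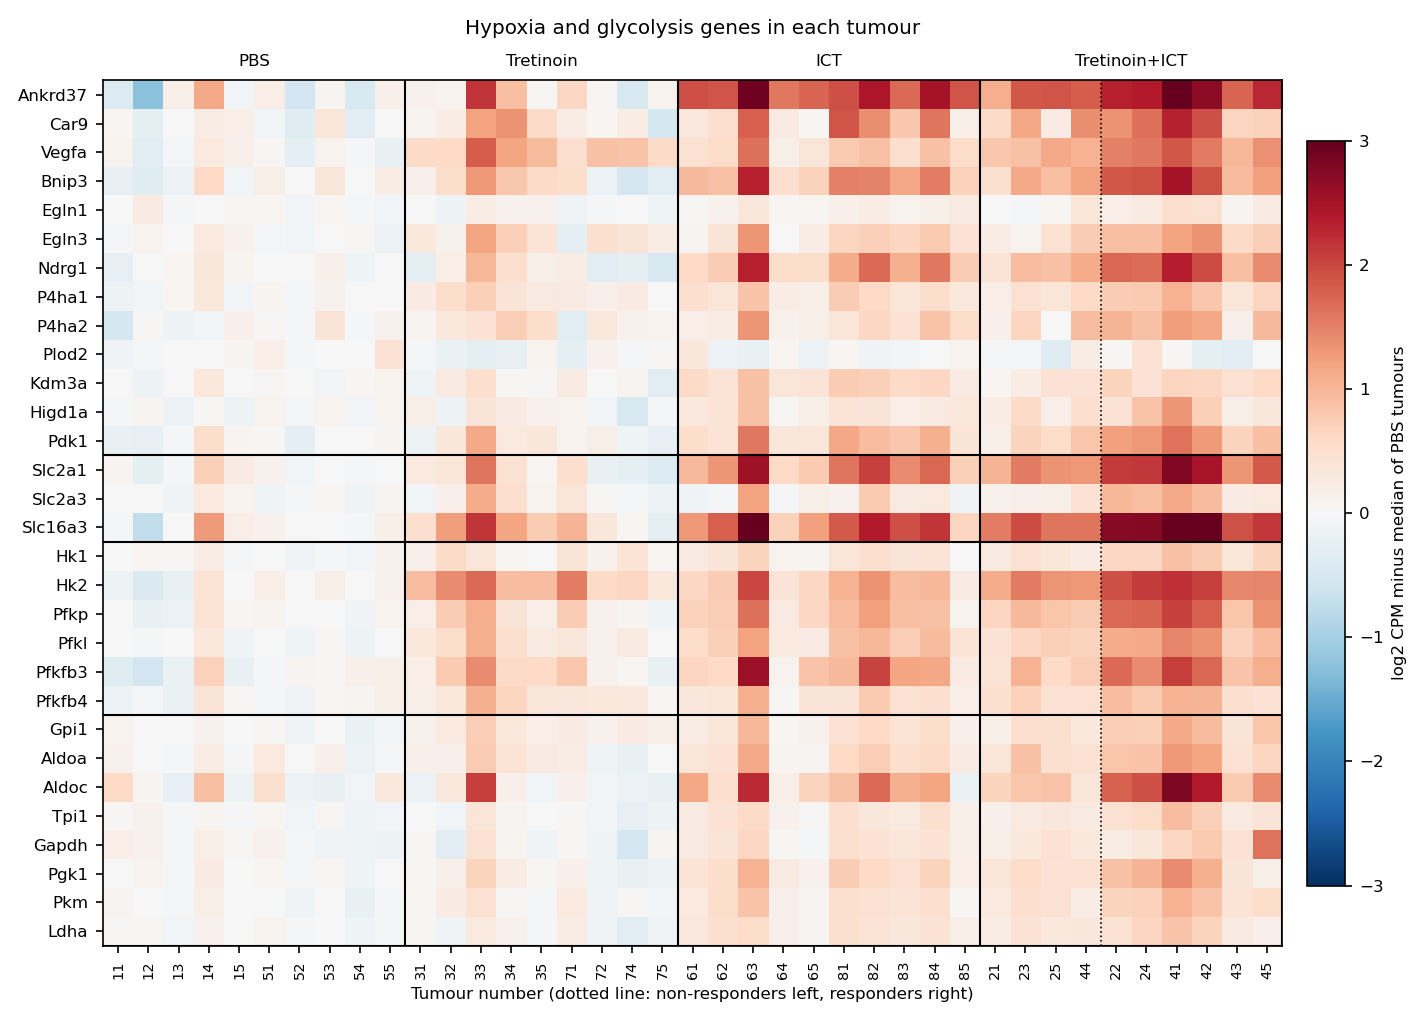
Level of each of the 30 members (rows) in each of the 39 tumours (columns), as log2 CPM minus the median of the 10 PBS tumours, with colours held at 3 above or below. Tumours 14, 33, 63 and 41 have the darkest column of their group, and the members of the ICT and Tretinoin+ICT groups are mostly red while Plod2 stays near white.

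Members moved together from tumour to tumour. PBS replicate 4 (tumour 14) had the highest level of its group in 22 of the 30 members, Tretinoin replicate 3 (tumour 33) in 26, ICT replicate 3 (tumour 63) in 28 and Tretinoin+ICT replicate 6 (tumour 41, a responder) in 26. The lowest Tretinoin+ICT level was that of replicate 1 (tumour 21, a non-responder) in 18 members. These 4 high tumours were also the highest of their groups in the summed level of 6 macrophage markers (Cd68, Csf1r, Mrc1 and 3 C1q chains), at 3592, 5329, 5298 and 4965 CPM against group medians of 2437, 3125, 3694 and 4312. Tumours 14, 33 and 63 led their groups in the 5 neutrophil markers too, at 111, 163 and 269 CPM. Tumours 14 and 33 also led in the summed T cell markers, at 92.3 and 149 CPM. In ICT, tumour 63 led in the endothelial, skeletal muscle and adipocyte sums as well, at 274, 1400 and 235 CPM. Tumours 33, 63 and 41, but not 14, had the lowest summed proliferation genes of their groups, at 1322, 1360 and 1331 CPM. The part of these cell types and of proliferation in the member levels was not tested.

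Tretinoin alone raised 10 of the 30 members and lowered none. In all, 11.5% of 14340 genes rose and 8.95% fell. The 10 were all 6 members of the hexokinase and phosphofructokinase steps, where glycolysis is chiefly controlled, and Vegfa, Egln3, P4ha1 and Gpi1. The median change of the members was 0.27 on the log2 scale, against 0.0079 over all genes. Of the members, 1 (Hk2) passed the fold minimum, as 1.49% of all genes did.

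Hk2 (ENSMUSG00000000628.10, chr6:82725025-82774454 in GENCODE M21 on GRCm38), the inducible hexokinase of tumours and muscle, had 44, 59.1 and 78.1 CPM (lowest, median and highest) in PBS tumours and 73.6, 111.5 and 191 CPM after tretinoin. Of the tretinoin tumours, 8 of 9 lay above every PBS tumour. The change was 1.04 ± 0.16 (adjusted p = 0.000169), and 0.93 without tumour 33. Hk1, the constitutive hexokinase, moved less, from a median of 163 to 181 CPM (0.23 ± 0.07, adjusted p = 0.0179). Per length, the median ratio of Hk2 to Hk1 RNA was 0.535 in PBS, 0.926 in Tretinoin, 0.758 in ICT and 1.10 in Tretinoin+ICT tumours. Lengths here and in later ratios are those of all annotated exons. The ratios therefore compare groups and do not rank the isoenzymes. By CPM the Tretinoin+ICT median of Hk1 (237) was above that of Hk2 (168).

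Vegfa (ENSMUSG00000023951.17, chr17:46016993-46032369), which drives vessel growth, had 43, 53.8 and 66.2 CPM in PBS tumours and 76.6, 97.7 and 188 CPM after tretinoin. It was the member whose groups did not overlap, as was true of 1.36% of all genes in the upward direction. The change was 0.96 ± 0.15 (adjusted p = 0.000136). Of the other members that rose, Gpi1, which isomerises glucose phosphate, went from a median of 406 to 478 CPM (0.30 ± 0.07, adjusted p = 0.00423) and P4ha1 from 146 to 174 CPM (0.30 ± 0.07, adjusted p = 0.0087). The phosphofructokinase subunits Pfkl and Pfkp both changed by 0.42 (SE 0.10 and 0.13, adjusted p = 0.00872 and 0.0325). Pfkfb3 and Pfkfb4, which set the level of the activator of phosphofructokinase, changed by 0.56 ± 0.19 (adjusted p = 0.0452) and 0.41 ± 0.11 (adjusted p = 0.0106). Egln3 changed by 0.42 ± 0.13 (adjusted p = 0.0255). Without tumour 33 the count was 8, and Pfkp (adjusted p = 0.0662) and Pfkfb3 (adjusted p = 0.10) did not pass. With all 39 tumours in 1 fit the count was 6, and Hk1 (adjusted p = 0.0516), Egln3 (adjusted p = 0.064), Pfkp (adjusted p = 0.119) and Pfkfb3 (adjusted p = 0.149) did not pass. The shares of all genes called in these alternative fits are not given here. Markers of other cells also moved after tretinoin: the 3 C1q chains of the 6 macrophage markers rose (summed median of the 6 from 2437 to 3125 CPM), as did Pecam1, Emcn and Vwf of the 6 endothelial markers (274 to 317 CPM), and Cdk1 and Ccnb1 of the 6 proliferation genes fell. The part of this in the member changes was not tested.

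None of the 3 transporters passed the test by edgeR. The lactate exporter Slc16a3 had 10.1, 16.9 and 40.8 CPM in PBS tumours and 14, 28.6 and 75 CPM after tretinoin (0.77 ± 0.28, adjusted p = 0.0592 by edgeR and 0.0388 by DESeq2). Slc2a1, the main glucose importer, gave 0.30 ± 0.22 and Slc2a3 0.26 ± 0.13. Ankrd37, an ankyrin repeat protein induced by HIF, gave 0.60 ± 0.32 (adjusted p = 0.182), with 1 tumour, number 33, above every PBS tumour. Of the 8 other enzymes, Ldha included, the 7 besides Gpi1 lay between −0.04 (Gapdh) and 0.24 (Aldoc) with adjusted p of at least 0.231. The other 7 HIF members that missed the test were Car9, Bnip3, P4ha2, Pdk1, Ndrg1, Kdm3a and Higd1a, at 0.06 to 0.50, while Egln1 (−0.00 ± 0.05) and Plod2 (−0.14 ± 0.07) lay at or under 0.

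**Figure D2:**
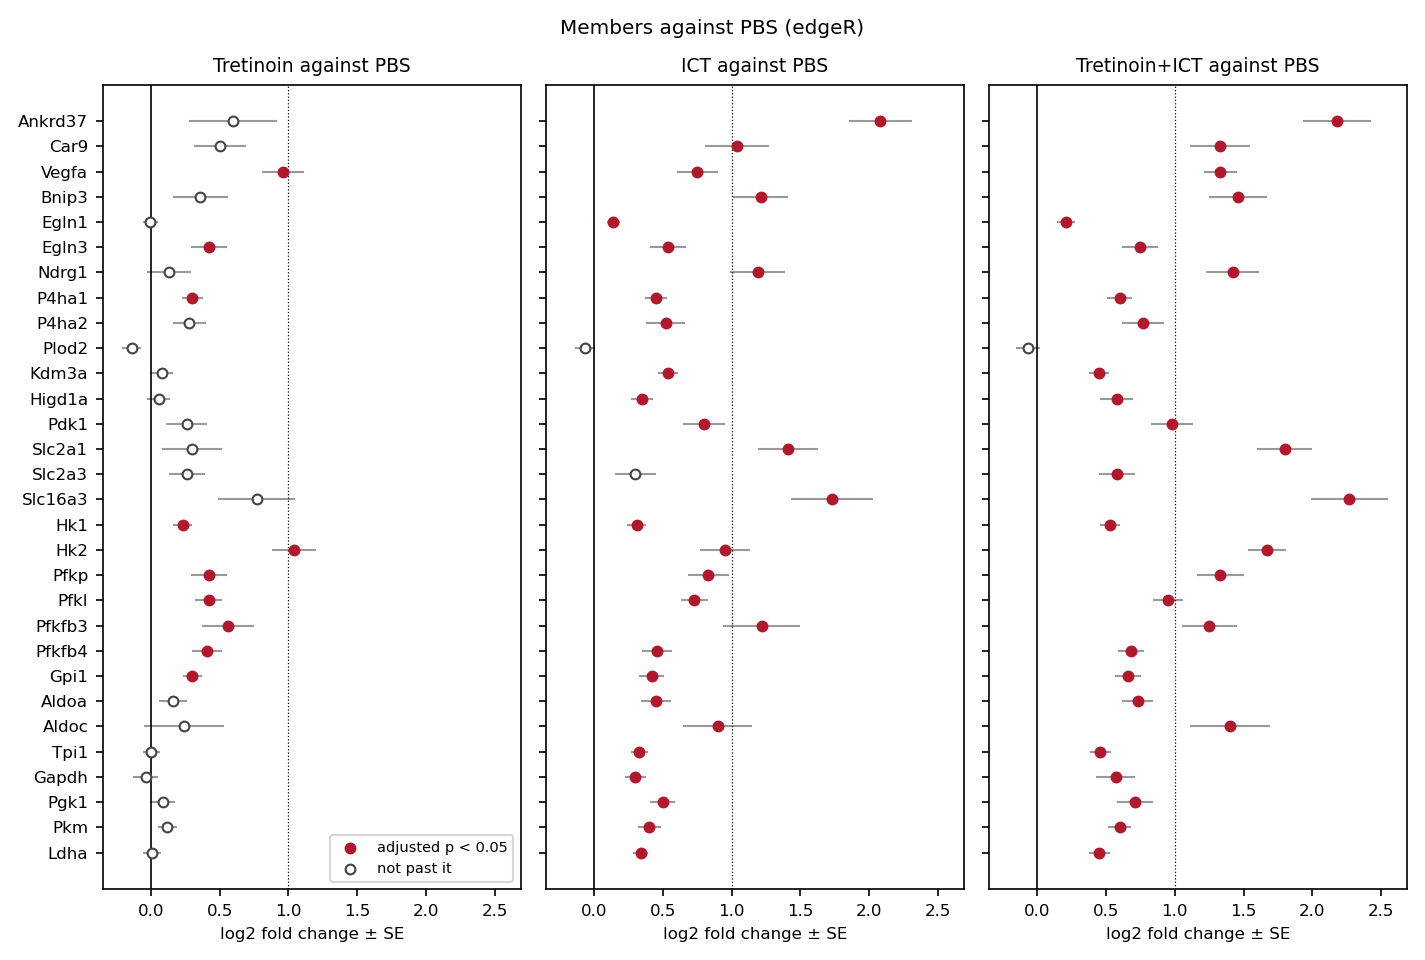
Log2 fold change of each member against PBS (horizontal axis, with bars of 1 SE) after tretinoin, ICT and both. Filled points passed an adjusted p of 0.05 and the dotted line is the fold minimum of 1, which 1, 7 and 11 members passed.

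ICT alone raised 28 of the 30 members, all but Slc2a3 and Plod2, and lowered none. Over the whole table, 14.1% of 14155 genes rose and 7.15% fell. Among the members, the largest changes were in Ankrd37, the lactate exporter Slc16a3 and the glucose importer Slc2a1, and all 14 members that encode enzymes of glycolysis or its control rose by less than these. The median was 0.53, against −0.016 over all genes, and 7 members passed the fold minimum, as 2.28% of all genes did.

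Ankrd37 (ENSMUSG00000050914.16, chr8:45996902-46005707) had 0.876, 2.04 and 4.50 CPM in PBS tumours and 6.13, 7.63 and 15.4 CPM after ICT. The 2 groups did not overlap. The change was 2.08 ± 0.23 (adjusted p = 2.16e-05), a fold of 4.22. Ndrg1, a stress-induced gene, also stood clear of PBS, at 62, 73.6 and 93.3 CPM against 106, 140.0 and 372 CPM (1.19 ± 0.20, adjusted p = 0.00111). Ankrd37 and Ndrg1 were the 2 members without overlap, a pattern that 0.389% of all genes showed upward.

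Slc16a3 (ENSMUSG00000025161.16, chr11:120948480-120960868) had 26.4, 59.6 and 152 CPM after ICT, and all 10 tumours lay above the PBS median of 16.9. The change was 1.73 ± 0.30 (adjusted p = 0.00121). Slc2a1 (ENSMUSG00000028645.11, chr4:119108711-119137983) went from 26.3, 32 and 52.3 CPM to 48.2, 83.1 and 188 CPM (1.41 ± 0.22, adjusted p = 0.00063). Slc2a3, the high-affinity glucose transporter of neurons and leukocytes, had a median of 9.78 CPM in PBS and 10.9 after ICT (0.30 ± 0.15, adjusted p = 0.139). Per length, the median ratio of Slc2a3 to Slc2a1 RNA was 0.141 in PBS and 0.152 in Tretinoin tumours, and 0.0645 and 0.065 in ICT and Tretinoin+ICT tumours.

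Among HIF targets, Bnip3, a receptor for mitophagy, changed by 1.21 ± 0.20 (adjusted p = 0.000904) and Car9, which acidifies the extracellular space, by 1.04 ± 0.23 (adjusted p = 0.00569). Kdm3a, a histone demethylase, had one of the smallest adjusted p-values at a modest change, from a median of 76.2 to 113.5 CPM (0.54 ± 0.07, adjusted p = 0.000122). Pdk1, which holds pyruvate back from the mitochondrion, changed by 0.80 ± 0.15 (adjusted p = 0.00224), and Vegfa by 0.75 ± 0.15 (adjusted p = 0.00288). The hydroxylases differed in size, with Egln3 at 0.54 ± 0.13 and Egln1 at 0.14 ± 0.05 (adjusted p = 0.0483). The collagen enzymes P4ha1 (0.45 ± 0.08) and P4ha2 (0.52 ± 0.14) rose, and Plod2 gave −0.07 ± 0.07 (adjusted p = 0.523).

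All 6 hexokinase and phosphofructokinase members rose after ICT, from 0.31 ± 0.07 for Hk1 to 1.22 ± 0.28 for Pfkfb3 (adjusted p = 0.00616). Pfkl, which had the smallest adjusted p of them, was at 95, 105 and 131 CPM in PBS tumours and 125, 174 and 243 CPM after ICT (0.73 ± 0.10, adjusted p = 0.000269). All 8 other enzymes rose, by 0.30 (Gapdh) to 0.90 (Aldoc). Ldha, which turns pyruvate to lactate, went from 667.5, 727 and 789 CPM to 768, 941 and 1062 CPM (0.34 ± 0.06, adjusted p = 0.000734), with 9 of 10 ICT tumours above every PBS tumour. Of the 30 members, 29 were higher in each of the 4 pairings of an ICT name series with a PBS name series. These pairings reuse the same tumours and are not independent. The like count was 13 for Tretinoin against PBS and 29 for Tretinoin+ICT against PBS. For Tretinoin+ICT it was 28 against Tretinoin and 19 against ICT. Markers of other cells moved with these members: all 6 macrophage markers and all 5 neutrophil markers rose after ICT, and their summed medians went from 2437 to 3694 and from 66.0 to 164 CPM. The part of this in the member changes was not tested.

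Tretinoin with ICT raised 29 of the 30 members, all but Plod2, and lowered none. Over the whole table, 25.7% of 14265 genes rose and 24.5% fell. Slc16a3, Ankrd37, Slc2a1 and Hk2 changed most. The median was 0.74, against −0.013 over all genes, and 11 members passed the fold minimum, as 5.45% of all genes did. In 15 members every Tretinoin+ICT tumour lay above every PBS tumour, as was true of 3.7% of all genes.

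Slc16a3 had 49.1, 69.9 and 182 CPM in Tretinoin+ICT tumours, all above the highest PBS tumour at 40.8 CPM (2.27 ± 0.28, adjusted p = 4.69e-06). Slc2a1 had 64.9, 105 and 217 CPM (1.80 ± 0.20, adjusted p = 1.66e-06), and again the groups did not overlap. Slc2a3, which had not passed the test after either agent alone, had 10.7, 12.7 and 21.7 CPM (0.58 ± 0.13, adjusted p = 0.000952). Ankrd37 had 4.38, 8.63 and 17.1 CPM (2.18 ± 0.25, adjusted p = 1.61e-06), and its lowest tumour lay just under the highest PBS tumour.

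Hk2 had the smallest adjusted p of the members. Its 10 tumours had 128, 168 and 270 CPM, where no PBS tumour passed 78.1 CPM (1.67 ± 0.14, adjusted p = 4.93e-08, fold 3.18). Vegfa had 94.2, 128 and 197 CPM, also clear of PBS (1.33 ± 0.12, adjusted p = 1.74e-07). Pfkp, the platelet-type phosphofructokinase, went from 78.2, 91.2 and 122 CPM to 142, 205 and 378 CPM (1.33 ± 0.17, adjusted p = 5.2e-06). Its ratio per length to Pfkl, the liver type, had a median of 0.450 in PBS, 0.409 in Tretinoin, 0.461 in ICT and 0.563 in Tretinoin+ICT tumours. By CPM the Tretinoin+ICT median of Pfkp (205) was above that of Pfkl (186), so the ratio does not rank the 2. The other members past the fold minimum were Bnip3 (1.46 ± 0.21), Ndrg1 (1.42 ± 0.19), Aldoc (1.40 ± 0.29), Car9 (1.33 ± 0.22) and Pfkfb3 (1.25 ± 0.20), with adjusted p between 9.92e-06 and 0.000524.

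The remaining 18 members that rose did so by 0.21 (Egln1) to 0.98 (Pdk1). Pyruvate kinase Pkm is an example of an abundant enzyme with a small and regular change, at 1093, 1275 and 1449 CPM in PBS and 1484, 1834 and 2622 CPM in Tretinoin+ICT tumours (0.60 ± 0.09, adjusted p = 1.09e-05). Gapdh (0.57 ± 0.14) had 1 tumour, responder 45, at 867 CPM, while the group median was 368 CPM. Tumour 45 was also the most deeply sequenced, and a part of Gapdh reads can be shared with copies. The 6 macrophage markers and 5 neutrophil markers rose here too (summed medians 4312 and 157 CPM), and 5 of 6 proliferation genes fell (summed median 2049 CPM in PBS and 1712 in Tretinoin+ICT). The part of these cells in the member changes was not tested.

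**Figure D3:**
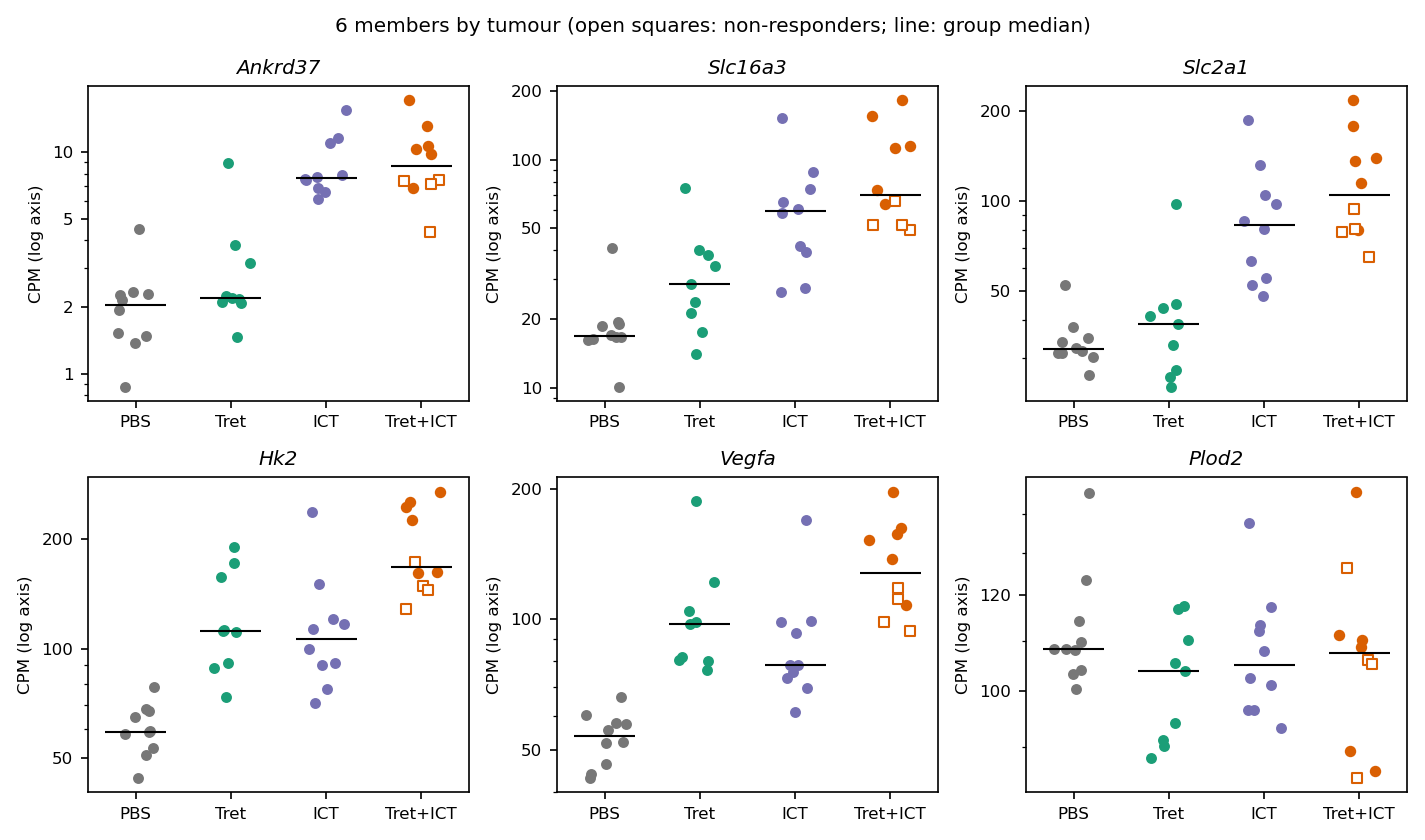
CPM (log axis) of 6 members in each tumour by treatment, with a line at the group median and open squares for non-responders. Hk2 and Vegfa are raised in all 3 treated groups, Ankrd37 is higher after ICT with or without tretinoin, and the 4 groups overlap for Plod2.

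Against tretinoin alone, the combination raised 25 of the 30 members and lowered none, with 12.3% of 14393 genes higher and 9.01% lower. The 5 that did not pass were Vegfa, Egln3, Pfkfb4, Slc2a3 and Plod2, of which the first 3 were among those that tretinoin alone had raised. These comparisons share the Tretinoin tumours. The median was 0.53, against −0.0044 over all genes. The fold minimum was passed by 6 members, as by 1.87% of all genes: Ankrd37 (1.58 ± 0.31, adjusted p = 0.00254), Slc2a1 (1.50 ± 0.28, adjusted p = 0.00201), Slc16a3 (1.50 ± 0.33, adjusted p = 0.00573), Ndrg1 (1.29 ± 0.25, adjusted p = 0.00232), Aldoc (1.16 ± 0.38, adjusted p = 0.0353) and Bnip3 (1.10 ± 0.27, adjusted p = 0.0102). For Ankrd37 all 10 combination tumours lay above the tretinoin median of 2.19 CPM and 5 lay above the highest tretinoin tumour. The abundant enzymes Tpi1, Pkm and Ldha changed by less, at 0.45 ± 0.10 (adjusted p = 0.00409), 0.48 ± 0.10 (adjusted p = 0.00454) and 0.44 ± 0.10 (adjusted p = 0.00477). Vegfa gave 0.37 ± 0.17 (adjusted p = 0.117). The 5 neutrophil markers and 3 of the 6 macrophage markers also rose.

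Against ICT alone, no member changed by edgeR when tretinoin was added, in a comparison where 1.57% of 14202 genes rose and 0.422% fell. The estimates lay above 0 in 28 of 30 members, with a median of 0.22 against −0.0049 over all genes. At an unadjusted p below 0.05, 4 members were higher (Hk2, Vegfa, Pfkp and Hk1), as were 9.58% of all genes. DESeq2 called 2 members, Hk2 and Vegfa, and 2.6% of all genes higher. Hk2 had 70.6, 106 and 238 CPM after ICT and 128, 168 and 270 CPM after both, so that all 10 combination tumours lay above the ICT median (0.71 ± 0.20, adjusted p = 0.0703 by edgeR and 0.0158 by DESeq2). Vegfa had 61.2, 78.6 and 169 CPM after ICT and 94.2, 128 and 197 CPM after both (0.58 ± 0.17, adjusted p = 0.0842 by edgeR and 0.0275 by DESeq2). The highest ICT tumour of both genes was number 63. Without it, a removal chosen after seeing the data, edgeR called Hk2 (0.89) and Vegfa (0.72), both at an adjusted p of 0.00298. Taking out the highest ICT tumour raises both estimates, and the share of all genes called in that fit is not given here. Ankrd37 gave 0.10 ± 0.21, Pfkfb3 0.02 ± 0.29 and Kdm3a −0.10 ± 0.08. No cell type marker passed the test by edgeR. All 5 skeletal muscle markers had estimates above 0 (0.59 to 0.78), 4 of them at an unadjusted p below 0.05. So did 3 of the 6 endothelial markers reach that unadjusted p, and no macrophage or neutrophil marker did. The part of these cells in the member estimates was not tested.

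The interaction of the 2 agents was tested over all 39 tumours, to ask whether tretinoin acted differently with ICT than without. No member differed, and none reached an unadjusted p below 0.05, by edgeR. DESeq2 called none either. Over 14977 genes, 0.0401% had a positive and 0.267% a negative interaction. Member estimates ran from −0.53 ± 0.37 (Pfkfb3) to 0.30 ± 0.18 (Gapdh), with a median of −0.035 against −0.021 over all genes. The standard errors, 0.23 for Vegfa and 0.26 for Hk2 among them, leave room for differences in either direction.

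Within the Tretinoin+ICT group, the members were higher in responders than in non-responders in all 30 estimates, but none passed the test by edgeR. Over 14604 genes edgeR called 0% higher and 0% lower at this group size, 6 against 4. The members had a median of 0.51, against 0.01 over all genes. At an unadjusted p below 0.05, 21 members were higher, beside 13.4% of all genes. DESeq2 called 17 members higher, beside 6.74% of all genes.

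The lactate exporter Slc16a3 had 49.1, 65.9, 51.5 and 51.8 CPM in the 4 non-responders and 63.6, 114 and 182 CPM (lowest, median and highest) in the 6 responders. All responders but 1 lay above every non-responder (1.11 ± 0.28, adjusted p = 0.0896 by edgeR and 0.00204 by DESeq2). Slc2a1 had 64.9, 94.3, 80.7 and 79.2 CPM in non-responders and 79.8, 138 and 217 CPM in responders (0.87 ± 0.24, adjusted p = 0.0942 by edgeR and 0.00756 by DESeq2). Aldoc (ENSMUSG00000017390.15, chr11:78322968-78327781), the aldolase of brain that is also a HIF target, had 8.81, 9.86, 10.0 and 7.20 CPM in non-responders and 9.59, 20.2 and 39.1 CPM in responders. Its estimate was the largest of the members, 1.32 ± 0.34 (adjusted p = 0.0896 by edgeR and 0.0023 by DESeq2).

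Pfkp had the smallest p of the members. Its non-responders had 142, 178, 162 and 156 CPM and its responders 163, 302 and 378 CPM (0.83 ± 0.19, adjusted p = 0.0841 by edgeR and 0.00222 by DESeq2). Pfkl had 142.5, 160, 171 and 166 CPM in non-responders and 169.5, 229 and 292 CPM in responders (0.54 ± 0.13, adjusted p = 0.0862 by edgeR). In both genes 5 of the 6 responders lay above all 4 non-responders. Vegfa had 94.2, 98.9, 118 and 111 CPM in non-responders and 108, 155 and 197 CPM in responders (0.54 ± 0.14, adjusted p = 0.0881). The order was the same in Ndrg1 (0.90 ± 0.25), Pfkfb3 (0.83 ± 0.23), Pdk1 (0.64 ± 0.18), Hk1 (0.34 ± 0.10) and Hk2 (0.57 ± 0.16), with adjusted p between 0.0925 and 0.0934 by edgeR, although in Hk2 only 4 responders lay above every non-responder.

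In 1 member, Kdm3a, all 6 responders (103.4 to 121 CPM) lay above all 4 non-responders (79.7, 89.1, 103.1 and 102.6 CPM), a pattern that 2.22% of all genes showed, and the gap there was under 1 CPM. In 17 members, Kdm3a included, at least 5 responders lay above all 4 non-responders, as in 9.05% of all genes. The exception was mostly the same tumour: replicate 8, tumour 43, was the lowest responder in 25 of the 30 members. Without it edgeR called 17 members, among them Pfkp (0.92, adjusted p = 0.00468), Vegfa (0.60, adjusted p = 0.0102), Pfkl (0.59, adjusted p = 0.0107), Aldoc (1.44, adjusted p = 0.0119) and Slc16a3 (1.21, adjusted p = 0.0156). This removal was one of 10 planned, each of 1 tumour, and after each of the other 9 the count was 0. Taking out the lowest responder raises the estimates of those members. The share of all genes called without tumour 43 is not given here, so the 17 cannot be set against it. The fewest responders above all 4 non-responders were 1 for Plod2 (0.05 ± 0.15) and 2 each for Egln1 (0.22 ± 0.10) and Aldoa. Response was uneven over the 2 name series of this group. One held non-responders 21, 23 and 25 and responders 22 and 24, the other non-responder 44 and responders 41, 42, 43 and 45. With the name series as a block the count of members was 0. It was also 0 without the block, so this does not show what the uneven series contributes.

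Other cell markers moved in the same samples. The summed macrophage markers were 4215 to 4965 CPM in responders and 3414 to 4014 in non-responders, without overlap, and tumour 43 had the lowest responder sum. The summed neutrophil markers were 132 to 262 and 101 to 160.5 CPM, the T cell markers 47.0 to 101 and 40.6 to 59.9 CPM, and the proliferation genes 1331 to 1944 and 1715 to 1999 CPM. By edgeR none of these markers passed the test, while at an unadjusted p below 0.05 there were 5 of 6 macrophage, 2 of 5 neutrophil, 5 of 6 T cell and 5 of 6 proliferation genes (DESeq2 called 3 macrophage, 2 neutrophil and 3 T cell markers higher in responders and 4 proliferation genes lower). Their part in the member differences was not tested.

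**Figure D4:**
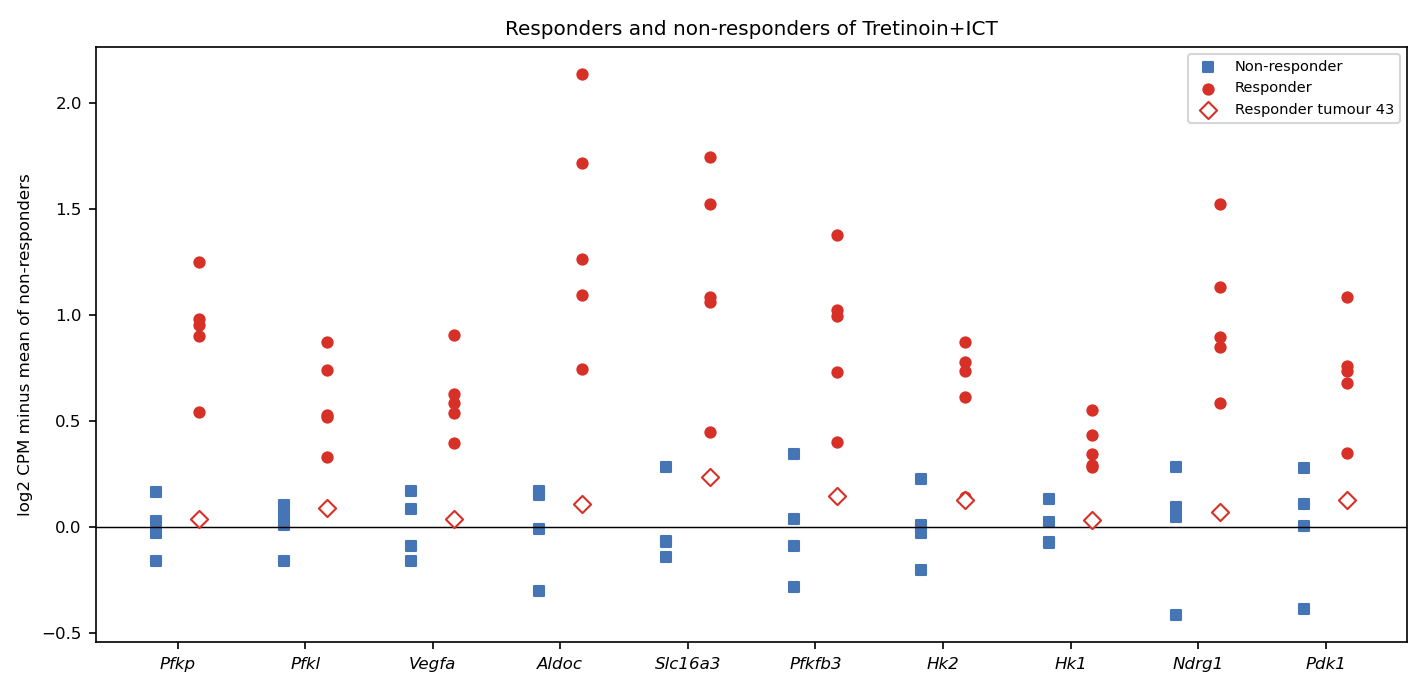
Log2 CPM of 10 members in each Tretinoin+ICT tumour, relative to the mean of the 4 non-responders (squares), for the 6 responders (circles, with tumour 43 as an open diamond). In these members tumour 43 lies within or just beside the non-responders while most of the other responders lie above them.

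The pathways around the members were followed with lists of their own. Their counts are to be read against the shares of all genes, of which 11.5% rose and 8.95% fell after tretinoin, 14.1% and 7.15% after ICT, and 25.7% and 24.5% after both. Of the HIF subunits and regulators, 6 were tested. Hif1a, the oxygen-regulated subunit, had 207, 225 and 272 CPM in PBS tumours and 293, 355 and 570 CPM in Tretinoin+ICT tumours (0.77 ± 0.12, adjusted p = 2.48e-05). It rose by less after tretinoin (0.27 ± 0.08, adjusted p = 0.0194), and after ICT it gave 0.30 ± 0.13 (adjusted p = 0.0922). Vhl, which targets it for destruction, rose in all 3 comparisons with PBS, by 0.25, 0.29 and 0.58. Arnt rose after tretinoin (0.15) and after both (0.08).

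Of 27 further HIF targets, 8 rose and 3 fell after tretinoin, 15 rose and 2 fell after ICT, and 17 rose and 4 fell after both, with medians of 0.11, 0.30 and 0.44. Adm, adrenomedullin, a vasodilator peptide, rose in each at 1.26 ± 0.07 (adjusted p = 1.21e-10), 1.19 ± 0.15 (adjusted p = 4.11e-05) and 1.42 ± 0.11 (adjusted p = 2.5e-08). Rab20, a small GTPase of phagosomes and mitochondria, rose after tretinoin (1.30 ± 0.20) and both (2.06 ± 0.19), and gave 0.54 ± 0.21 after ICT (adjusted p = 0.0736). Nfil3 (1.49 ± 0.22) and the adenylate kinase Ak4 (1.02 ± 0.15) were among the risers after ICT. Car12, a second extracellular carbonic anhydrase, fell in all 3, unlike its relative Car9, by 0.49 on the log2 scale after tretinoin. When tretinoin was added to ICT, Rab20 (1.51 ± 0.22) and Bhlhe40 (0.95 ± 0.15) rose and the transferrin receptor Tfrc fell by 0.70.

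Of 16 further glycolytic enzymes and transporters tested, 2 rose and 1 fell after tretinoin, 5 rose after ICT, and 6 rose and 1 fell after both. The myeloid hexokinase Hk3 moved most, at 21.1, 37.3 and 110 CPM in PBS and 91.7, 197 and 469 CPM in Tretinoin+ICT tumours (2.53 ± 0.33, adjusted p = 8.54e-06). Slc2a6, a lysosomal hexose transporter, rose in all 3 as well, by 0.83, 0.83 and 1.32. The enolases Eno1 and Eno2 rose after ICT by 0.35 ± 0.07 and 0.71 ± 0.14, and Eno1 gave −0.01 ± 0.07 after tretinoin. Of 17 genes of pyruvate oxidation and the TCA cycle, at the mitochondrial end of the route, 1 rose and 6 fell after tretinoin, 2 fell after ICT, and 3 rose and 5 fell after both. Idh3a fell in all 3, by 0.24, 0.21 and 0.29, while Pdk4, an inhibitor of pyruvate dehydrogenase like Pdk1, rose after tretinoin (1.19 ± 0.27, adjusted p = 0.00544) and both (1.08 ± 0.28, adjusted p = 0.00354). Of the 6 pentose phosphate genes, 1 rose and 1 fell, 2 rose, and 4 rose in the same order of comparisons, with Pgd, which makes NADPH, rising in each (0.21, 0.29 and 0.46).

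**Figure D5:**
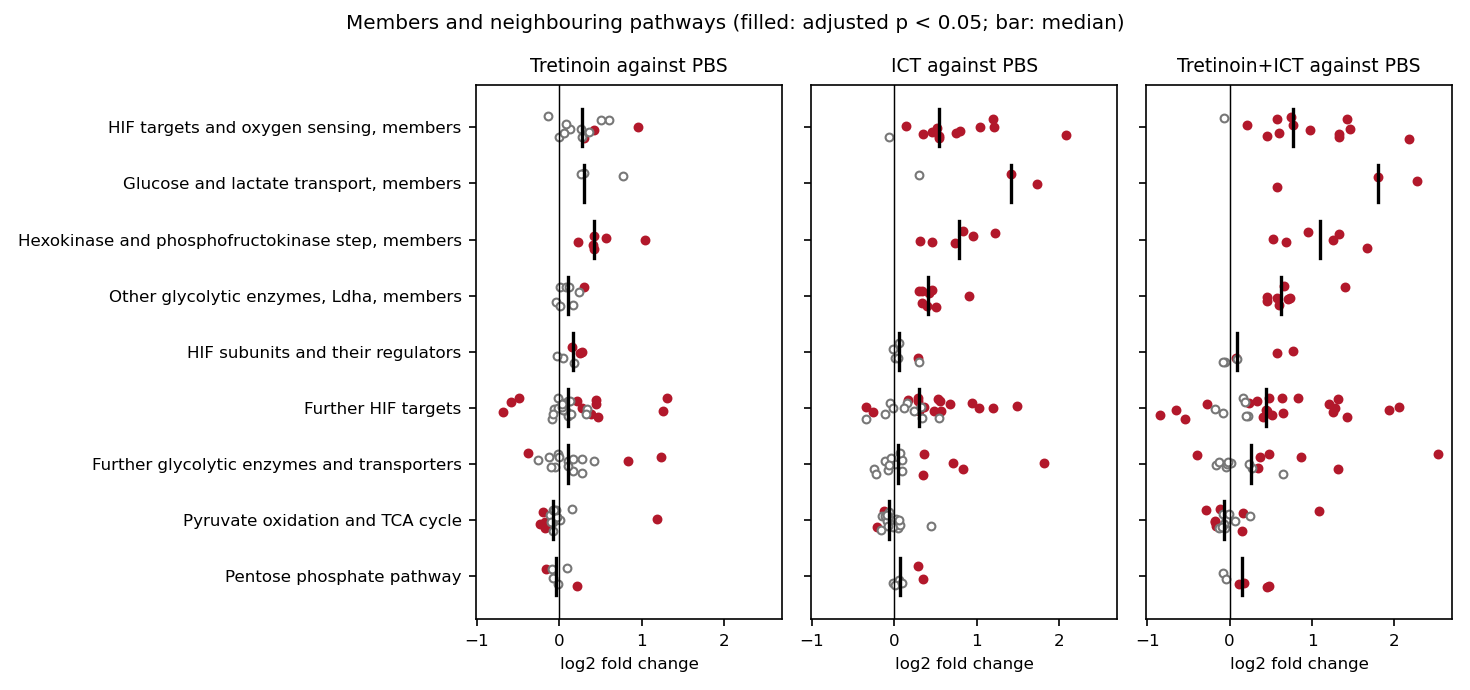
Log2 fold change against PBS of every tested gene of the 4 member groups (top) and of the 5 neighbouring lists, with filled points past an adjusted p of 0.05 and a bar at the median of each list. The member groups sit to the right of 0 after ICT and after both, most of all the transporters, and the pyruvate oxidation and TCA cycle list sits close to 0.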

How the data were processed

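Whole AB1-HA tumours were sequenced on a NovaSeq with 100-base single-end reads. Alignment was by HISAT2 2.0.4 against a mouse build called mm11 in the methods. The authors deposited raw counts per gene from SummariseOverlaps, as whole numbers with no normalization. Strand mode is not given in the sources used here. Gene IDs were matched without version to GENCODE M21 (GRCm38), which supplied coordinates and exon lengths. Total counts per tumour ran from 14033046 to 37951183 (median 18548168), and Ankrd37 had the lowest counts of the members. Its SE was not always the largest, at 0.23 after ICT where that of Slc16a3 was 0.30.

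Groups came from the labels. For each pair of groups, edgeR 4.0.16 (R 4.3.3; TMM, filterByExpr, robust quasi-likelihood, two-sided) was fitted on those tumours alone and p-values were Benjamini-Hochberg adjusted over all genes tested. The interaction used all 39 tumours. SE was obtained as the size of the log2 change over the root of its F statistic. CPM values are for description. The script was tested on simulated data. The members and lists were chosen with earlier results of these data known. Genes given full statistics are, per comparison, up to 10 changed members with the smallest adjusted p and any past the fold minimum, and up to 4 genes of each neighbouring list.

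Alternatives were DESeq2 1.42.0, DESeq2 size factors, omitting the filter on low counts, requiring 10 counts or more in all tumours compared, the fold minimum, all tumours in 1 fit, the name series as a block, and leaving out each Tretinoin+ICT tumour for the response comparison. Leaving out PBS replicate 4, Tretinoin replicate 3 or ICT replicate 3 was chosen after seeing the data. Promoters are from RefSeq (27 of 30 members matched). Flow cytometry and survival were not analysed here.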

Additional observations from a re-analysis of the deposited data

Results flagged for a closer look

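In 180 combinations of a member and a group, the highest and lowest tumours were compared with their neighbours by Dixon's criterion, which chance meets in about 1 in 20 groups, and 18 were found. Of these, 6 belonged to Tretinoin replicate 3 (tumour 33), which was far above its group in Pdk1 (65.9 CPM), Slc2a1 (97.7), Pfkl (224.5), Gpi1 (682), Aldoc (23.6) and Pgk1 (811). PBS replicate 4 (tumour 14) stood out in 5, at 43.2 CPM for Pdk1, 12.1 for Slc2a3, 40.8 for Slc16a3, 122 for Pfkp and 131 for Pfkl, and ICT replicate 3 (tumour 63) in 2, at 169 CPM for Vegfa and 52.4 for Higd1a. The other 5 were Egln1 in PBS tumour 12 (130.0 CPM), Gapdh in Tretinoin+ICT tumour 45 (867 CPM), P4ha2 in responder tumour 43 (19.8 CPM, low), Ankrd37 in non-responder tumour 21 (4.38 CPM, low) and Pfkfb4 in non-responder tumour 23 (42.8 CPM, high).

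Adm, one of the further HIF targets, responded differently to tretinoin with and without ICT. Tretinoin tumours had 13.1, 14.9 and 18.3 CPM (lowest, median and highest) against 5.43, 6.28 and 7.71 in PBS, while Tretinoin+ICT tumours had 11, 17.6 and 26.0 against 9.88, 12.7 and 22.4 after ICT alone. The interaction was −1.04 ± 0.19 (edgeR over all 39 tumours, adjusted p = 0.00353).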

How the results depend on the processing

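Of 58 counts of changed members under an alternative, 48 stayed within 1.5 times the count reported and 10 did not. With the fold minimum the counts were 1 (Tretinoin against PBS), 7 (ICT against PBS), 11 (Tretinoin+ICT against PBS) and 6 (Tretinoin+ICT against Tretinoin), which follows from the smaller set the rule admits. With all 39 tumours in 1 fit, 6 members changed after tretinoin and 2 between Tretinoin+ICT and ICT. In the latter comparison DESeq2 gave 2, and so did the fit without ICT replicate 3. Between responders and non-responders DESeq2 gave 17, and leaving out each tumour gave 0 to 17, with 17 only without replicate 8 (tumour 43). The cause of these differences was not tested. Apart from DESeq2 and the fold minimum, no share of all genes is given for these alternatives. Of 530 values of single members, 494 kept their direction and side of the threshold, 26 newly passed it, 10 no longer passed it (Hk1, Egln3, Pfkp and Pfkfb3 after tretinoin, and Aldoc between Tretinoin+ICT and Tretinoin) and none turned direction. No paired analysis was possible because the replicate numbers follow accession order and tie no tumours of different groups together.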

Other observations

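Several members have a related gene in the same list, and the proportion of each pair is given here. Per length of exon, the median ratio of Egln3 to Egln1 RNA was 0.429 in PBS, 0.549 in Tretinoin, 0.558 in ICT and 0.613 in Tretinoin+ICT tumours. That of Pfkfb4 to Pfkfb3 was 0.982, 0.974, 0.682 and 0.700, and that of Aldoc to Aldoa was 0.0068, 0.00607, 0.00955 and 0.00958. These ratios are descriptions with no test, and lengths are those of all annotated exons.

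The endothelial and mesothelial genes in this paragraph were chosen after their values were seen. The receptor genes Kdr and Tek fell after ICT (by 0.42 and 0.39 on the log2 scale) and after both agents (by 0.69 and 0.38), and Pecam1 and Vwf rose after tretinoin (0.28 ± 0.06 and 0.68 ± 0.16) and after both (0.41 ± 0.07 and 0.55 ± 0.15). Wt1, a mesothelial transcription factor of low level, rose in each comparison with PBS, by 1.12 ± 0.31 after tretinoin, 1.40 ± 0.30 after ICT and 2.39 ± 0.37 after both (adjusted p = 0.0157, 0.00443 and 2.71e-05 by edgeR). Its median was 0.707 CPM in PBS tumours and 3.42 CPM in Tretinoin+ICT tumours. Wt1 does not stand for its list. Vim gave −0.27 after tretinoin (adjusted p = 0.0145 by edgeR), and Pdpn rose after ICT (0.22) and after both (0.27). The summed level of the 5 mesothelial markers analysed had a median of 4102 CPM in PBS tumours. It was 3331 CPM in Tretinoin, 3765 CPM in ICT and 3734 CPM in Tretinoin+ICT tumours. Non-responder tumour 23 had the highest summed skeletal muscle markers of its group, 3552 CPM against a group median of 1065 CPM.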
